A study of Mus musculus with 30 samples.

Results

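The fatty acid desaturases Scd1, Scd2, Fads1, Fads2 and Fads3 were measured by RNA-seq of polyadenylated RNA in AML12 cells, a mouse hepatocyte line. These 5 genes were taken by name from 49089 counted genes, with earlier results of these data known. All 5 passed the filter on low counts and were tested among 11368 genes. Cells were transfected with non-silencing siRNA (Control) or with siRNA against Foxk1 (FoxK1 KD), Foxk2 (FoxK2 KD) or both (DKD), so each knockdown is partial and transient. All 8 groups were kept overnight without serum and then left unstimulated (basal) or given 100 nM insulin for 6 h. Basal samples carry a label of 0 h, although the protocol speaks of a mock treatment. Each group had 4 samples, except Control and DKD cells after insulin, which had 3 each. The paper's methods define n in general as animals or independent experiments but give none for RNA-seq. The labels do not say whether these samples came from separate cultures. The p-values thus measure the spread between samples only, which may be technical.

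Stearoyl-CoA desaturases (SCD) put a double bond at the Δ9 position of saturated fatty acyl-CoAs and so make oleate and palmitoleate, the monounsaturated fatty acids of triglycerides, cholesterol esters and membranes. The Fads gene cluster works on dietary polyunsaturated fatty acids: Fads2 encodes the Δ6 desaturase, Fads1 the Δ5 desaturase, and Fads3 a related enzyme that acts on sphingoid bases. In liver, insulin raises transcription of Scd1 and of the Fads genes largely through SREBP-1c, which liver X receptors also induce. FoxK1 and FoxK2 are forkhead transcription factors that move to the nucleus after insulin stimulation.

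The total gene count of a sample was 2141460 to 5668270. Expression is given as CPM (gene counts relative to the TMM-scaled library size, in the usual CPM unit), and differences as log2 fold changes ± SE from edgeR's quasi-likelihood test in 1 model of the 8 groups. A gene was called at a Benjamini-Hochberg adjusted p below 0.05 over all 11368 genes. Where groups are said not to overlap, the share of all tested genes that also did not overlap was not counted. Foxk1 was at 45.2% of its Control mean in FoxK1 KD and 57.1% in DKD at basal, and at 58.2% and 64.6% after insulin. Foxk2 was at 33.7% in FoxK2 KD and 35.8% in DKD at basal, and at 40.4% and 39.5% after insulin. In FoxK1 KD, Foxk2 was at 83.5% at basal (-0.26 ± 0.08, adjusted p = 0.0487) and 85.5% after insulin (-0.22 ± 0.09, adjusted p = 0.180). In FoxK2 KD, Foxk1 was at 85.8% at basal (adjusted p = 0.441) and 98.8% after insulin (adjusted p = 0.998). In Control cells Foxk1 averaged 81.4 CPM at basal and 53.0 after insulin. Of the hepatocyte markers, Krt8, Krt18 and Hnf4a were well detected, whereas Alb had a median of 6.77 CPM (at most 65.2). Ttr and Trf had medians of 36.0 and 14.3 CPM, and Apoa1 and Apoe did not pass the filter. Krt8 was at 433 to 644 CPM in Control basal, 684 to 852 in DKD basal and 724 to 983 in Control insulin samples. Krt18 in DKD basal samples (1323 to 1480 CPM) lay within the range of Control basal samples (871 to 1668). Fibroblast, endothelial and adipocyte marker lists summed to at most 1.39, 0.55 and 0.37 CPM in any sample. The leukocyte list came mostly from Csf1r and summed to 8.22 to 12.9 CPM in Control basal, 17.7 to 22.1 in FoxK1 KD basal and 15.7 to 18.0 in DKD basal. It was lower after insulin, at 4.09 to 6.33 CPM in Control, 10.5 to 14.0 in FoxK1 KD, 4.09 to 6.61 in FoxK2 KD and 6.63 to 9.51 in DKD, against 11.1 to 13.4 in FoxK2 KD basal. It thus moved with insulin, and with FoxK1 KD and DKD at both treatments. In this list Adgre1 was at 0 in all 30 samples and Itgam in 29. The part of this list in the results below was not tested. In bulk RNA, fewer cells of a type and less RNA per cell cannot be told apart.

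The place of the DKD basal libraries among the others depended on the genes. By the labels, 186 of the 11368 genes were lower, and 152 higher, in all 16 basal libraries than in all 14 insulin libraries. Likewise 52 genes were lower, and 83 higher, in the 12 Control, FoxK1 KD and FoxK2 KD basal libraries than in all 18 others, DKD basal among them. Genes were counted here because they separate these libraries, so the counts describe the libraries and test nothing. A double knockdown effect, a batch of libraries and a treatment that differed from the label cannot be told apart for the latter genes. In the DKD samples Scd1 was at 545 to 646 CPM at basal and 1122 to 1258 after insulin, and Fads2 in DKD basal samples (513 to 559 CPM) lay among the other basal samples. Scd2 in DKD basal samples (2860 to 3260 CPM) lay below all other samples. Fads1 in DKD basal samples (1225 to 1352 CPM) overlapped with samples of both treatments, and Fads3 had its highest group mean there (379 CPM). The place of these libraries was not tested with the desaturases. Log2 fold changes of 11346 genes also tracked GC content. Comparing DKD basal with Control basal cells gave a Spearman correlation of 0.466. With FoxK1 KD basal cells it reached 0.601, and with FoxK2 KD basal cells 0.571. Other comparisons lay between -0.307 (DKD minus Control, insulin effect) and 0.326 (FoxK1 KD, insulin). What caused this trend was not tested, and calls that changed with it taken out are given below.

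Scd2 was the most abundant desaturase. Per kilobase of exon, Scd2 made 853 ± 65.5 RPKM in Control basal cells (SD, n = 4), followed by Fads1 at 290.1 ± 19.2, Scd1 at 217 ± 22.5, Fads2 at 181 ± 37.0 and Fads3 at 86.3 ± 11.6. Scd2 thus accounted for 52.5% ± 3.87 of the summed desaturase RPKM in Control basal cells, and for 46.4% ± 0.98 in DKD basal cells, the lowest of the 8 groups. The order changed after insulin in Control cells, where Scd1 (308 ± 4.13 RPKM) passed Fads1 (281 ± 14.7). In Control basal cells Scd1 and Fads2 overlapped in mean ± SD, with the Fads2 spread set by replicate 1 (777 CPM, against 518 to 554 in the others). In FoxK1 KD and DKD basal cells Scd1, at 118 ± 7.76 and 123 ± 8.86 RPKM, lay below Fads2, at 167 ± 13.3 and 164 ± 5.83. In FoxK1 KD cells after insulin, Scd1 (188 ± 10.6) and Fads2 (200.2 ± 12.5) also overlapped in mean ± SD. Differences between these genes within a sample were not tested. The other Δ9 desaturase genes, Scd3 and Scd4, had at most 4 and 5 reads in any sample and were not tested.

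**Figure D1:**
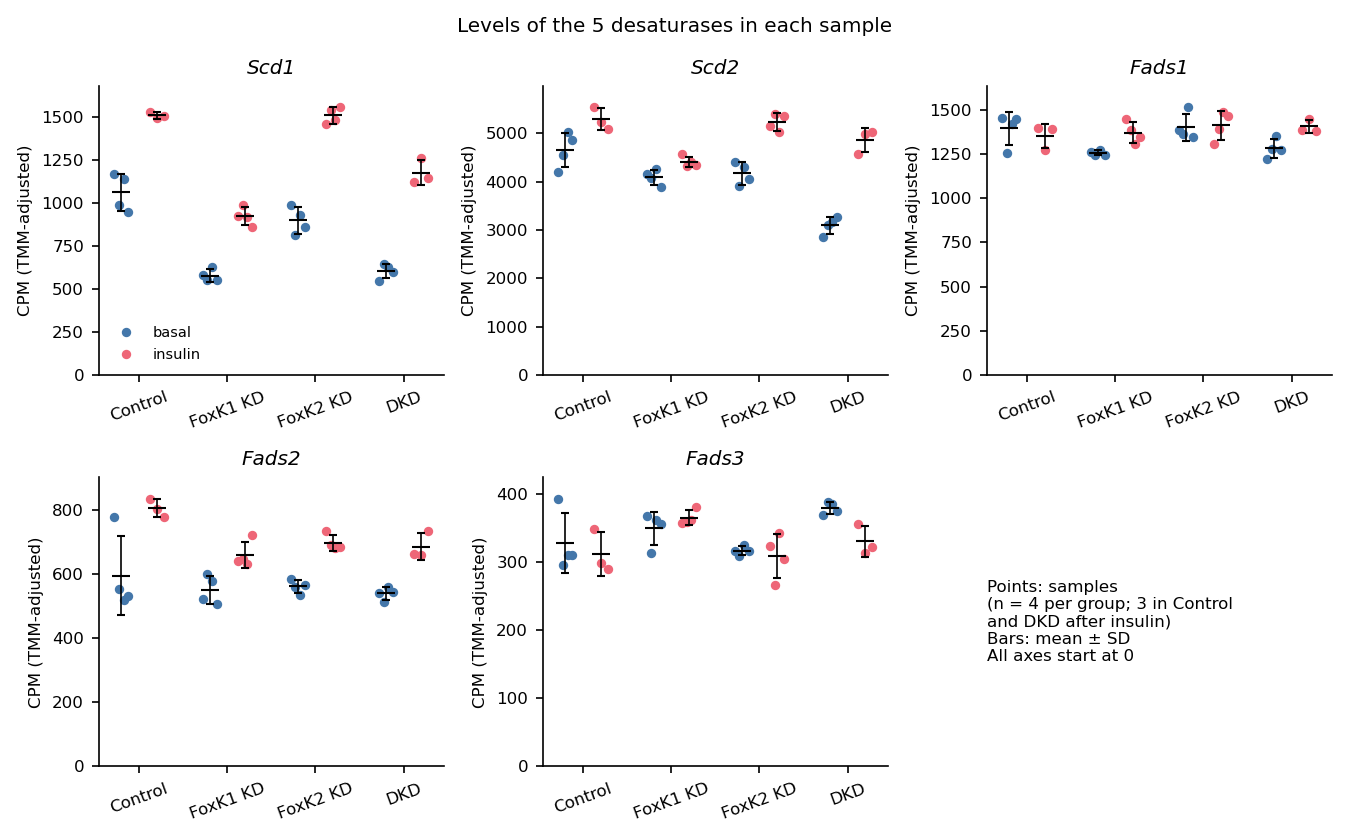
Level of each desaturase in CPM (vertical axis, from 0) in the 4 genotypes without insulin (blue) and after insulin (red), with 1 point for each sample and bars for mean ± SD. Scd1 was lowest in FoxK1 KD and DKD basal samples (545 to 646 CPM), Scd2 was lowest in DKD basal samples (2860 to 3260 CPM), Fads2 was higher after insulin apart from Control basal replicate 1, and Fads1 and Fads3 varied little.

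Scd1, the main liver Δ9 desaturase, was the most variable member, with a 2.62-fold span between its highest and lowest group means. In Control basal cells it was at 1168, 986, 1140.2 and 947 CPM, and after insulin at 1531, 1491 and 1505 CPM. These samples did not overlap, and Scd1 rose by 0.51 ± 0.08 on the log2 scale (adjusted p = 1.53e-05). In FoxK1 KD basal cells it was at 582, 549, 629 and 549 CPM, 54.4% of the Control mean. No FoxK1 KD sample came near a Control sample, and the log2 fold change was -0.88 ± 0.08 (adjusted p = 1.08e-09). In DKD basal cells it was at 545, 646, 625 and 600.0 CPM, below all Control basal samples and mixed with those of FoxK1 KD. The log2 fold change of DKD against Control was -0.81 ± 0.08 (adjusted p = 5.49e-09). FoxK2 KD basal samples, at 990.0, 814, 929 and 859 CPM, overlapped with Control. Scd1 was not called there (-0.24 ± 0.08, adjusted p = 0.171).

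Insulin raised Scd1 in every genotype, and in none did basal and insulin samples overlap. After insulin Scd1 was at 926, 986, 915 and 859.6 CPM in FoxK1 KD cells, a rise of 0.68 ± 0.08 on the log2 scale (adjusted p = 3.78e-08). In FoxK2 KD cells it was at 1456, 1540.2, 1482 and 1555 CPM, a rise of 0.75 ± 0.08 (adjusted p = 3.98e-09). In DKD cells it was at 1122, 1258 and 1144 CPM, a rise of 0.96 ± 0.08 or 1.95-fold (adjusted p = 2.02e-10). The FoxK1 KD samples with insulin, at 859.6 to 986 CPM, overlapped only with the lower end of the range of the Control samples without it, 947 to 1168 CPM. Compared with insulin-stimulated Control cells, Scd1 was lower in FoxK1 KD (-0.71 ± 0.08, adjusted p = 6.19e-07) and at -0.001 ± 0.08 in FoxK2 KD (adjusted p = 0.9997). All comparisons with Control at 1 treatment share the same Control samples.

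In DKD cells after insulin, Scd1 stood between Control and FoxK1 KD. It was lower than in Control, with no overlap of samples (-0.36 ± 0.09, adjusted p = 0.0285). This call was lost without any 1 of 5 of the 6 libraries, Control insulin replicates 1, 2 and 3 and DKD insulin replicates 1 and 3 (-0.34 to -0.39, adjusted p = 0.0565 to 0.125), and in a fit of only the groups compared (-0.36, adjusted p = 0.144). The insulin effect on Scd1 was larger in DKD than in Control by 0.45 ± 0.12 on the log2 scale (adjusted p = 0.0406). That difference was not called without Control basal replicate 3, DKD basal replicates 1, 3 or 4, Control insulin replicates 2 or 3, or DKD insulin replicates 1, 2 or 3 (0.39 to 0.47, adjusted p = 0.0514 to 0.164), nor with a replicate block (0.45, adjusted p = 0.0520), with the GC and length trend taken out (0.42, adjusted p = 0.0623) or in a fit of only the groups compared (0.45, adjusted p = 0.181). For FoxK1 KD and FoxK2 KD the differences in insulin effect were 0.17 ± 0.11 (adjusted p = 0.536) and 0.24 ± 0.11 (adjusted p = 0.887).

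Scd2, the Δ9 desaturase of most tissues outside the adult liver and the leading form in these cells, had a different pattern. In Control basal cells it was at 4211, 4549.8, 5022 and 4859 CPM, and in DKD basal cells at 2860, 3102, 3162 and 3260 CPM. All 4 DKD samples lay below all 26 others, and Scd2 fell by 0.59 ± 0.07 on the log2 scale against Control (adjusted p = 1.51e-07). The single knockdowns overlapped with Control. FoxK1 KD basal samples were at 4161, 4068, 4258 and 3889 CPM (-0.19 ± 0.07, adjusted p = 0.0785), and FoxK2 KD basal samples at 4415, 3908, 4310 and 4055 CPM (-0.16 ± 0.07, adjusted p = 0.338). The FoxK1 KD value was called by DESeq2 (adjusted p = 0.0200), by limma-voom (adjusted p = 0.0438), with the GC and length trend taken out (adjusted p = 0.0498) and without Control basal replicate 1 (-0.23, adjusted p = 0.0431).

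Insulin raised Scd2 most in DKD cells, to 4584, 4982 and 5023 CPM, which is 0.65 ± 0.07 above DKD basal on the log2 scale (adjusted p = 5.23e-08). In FoxK2 KD cells it rose to 5151, 5397, 5026 and 5368 CPM, by 0.33 ± 0.07 (adjusted p = 0.000356). In Control cells it was at 5539, 5246 and 5099 CPM after insulin, above every Control basal sample but short of the threshold (0.18 ± 0.07, adjusted p = 0.0581). That value was called by DESeq2 (adjusted p = 0.0147) and limma-voom (adjusted p = 0.0263), and by edgeR without Control basal replicate 3 (0.22, adjusted p = 0.0330) or 4 (0.21, adjusted p = 0.0471). FoxK1 KD insulin samples were at 4566, 4324, 4414 and 4336 CPM (0.11 ± 0.07 above basal, adjusted p = 0.229).

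The DKD and Control insulin effects on Scd2 differed by 0.47 ± 0.10 on the log2 scale (adjusted p = 0.0140). The call was lost without Control insulin replicate 3 (0.43, adjusted p = 0.0512) or DKD insulin replicate 2 (0.44, adjusted p = 0.0603), and in a fit of only the groups compared (0.46, adjusted p = 0.164). After insulin, Scd2 was not called in DKD against Control (-0.12 ± 0.08, adjusted p = 0.547). The samples did not overlap there, which with so few samples is no support for a difference. In FoxK1 KD it was lower than Control after insulin (-0.26 ± 0.07, adjusted p = 0.0328). This was lost without Control insulin replicates 1 or 2 or FoxK1 KD insulin replicates 2, 3 or 4 (-0.23 to -0.29, adjusted p = 0.0523 to 0.144), with a replicate block (-0.27, adjusted p = 0.0516), with no filter on low counts (-0.29, adjusted p = 0.0771) and in a fit of only the groups compared (-0.26, adjusted p = 0.0629).

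Direct contrasts of DKD with each single knockdown were added after these values had been seen. At basal, Scd1 overlapped between DKD and FoxK1 KD (0.07 ± 0.08, adjusted p = 0.564) and was lower in DKD than in FoxK2 KD (-0.57 ± 0.08, adjusted p = 6.32e-06). Scd2 was lower in DKD than in FoxK1 KD (-0.40 ± 0.07, adjusted p = 7.42e-05) and than in FoxK2 KD (-0.43 ± 0.07, adjusted p = 5.34e-05). Of all tested genes, 26.3% and 17% were called in these 2 contrasts. After insulin, Scd1 was higher in DKD than in FoxK1 KD (0.35 ± 0.08, adjusted p = 0.0455, with 0.352% of genes called), a call that was lost without any 1 of the 7 libraries (0.30 to 0.39, adjusted p = 0.0651 to 0.246) and with a replicate block (0.33, adjusted p = 0.0920). Its contrast with FoxK2 KD was -0.36 ± 0.08 (adjusted p = 0.0763, with 0.132% of genes called), and DESeq2 (adjusted p = 0.00290) and limma-voom (adjusted p = 0.0281) called it.

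**Figure D2:**
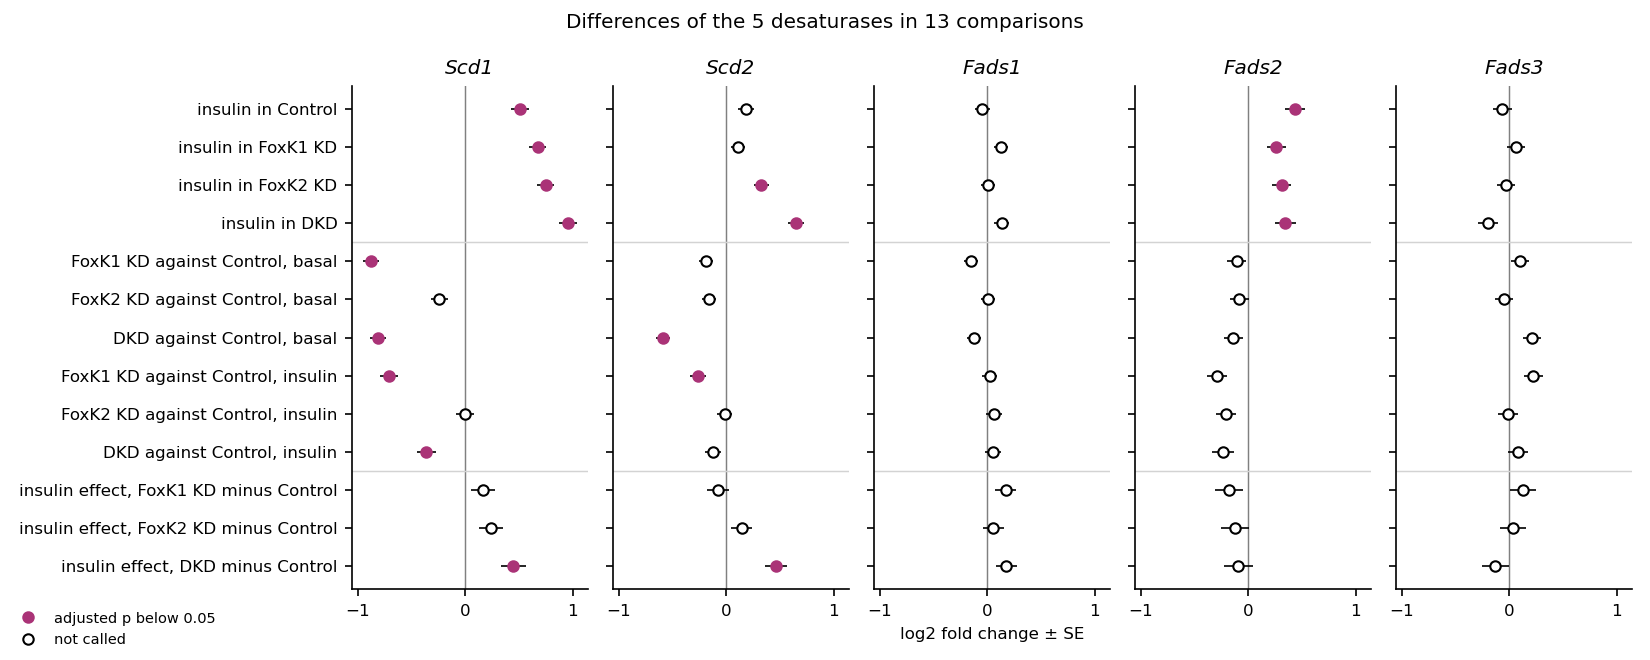
Log2 fold change ± SE (horizontal axis) of each desaturase in the 13 comparisons (rows), with filled points for an adjusted p below 0.05. Scd1 is called in 8 of the 10 comparisons of 2 groups, Scd2 and Fads2 in 4 each, and Fads1 and Fads3 in none, and only Scd1 and Scd2 are called for a difference in insulin effect, both for DKD.

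The unequal changes of Scd1 and Scd2 were also examined as the ratio of their counts within a sample, which does not depend on library scaling. Scd1 had 27.7, 21.7, 22.7 and 19.5 counts per 100 Scd2 counts in Control basal samples and 14.0, 13.5, 14.8 and 14.1 in FoxK1 KD basal samples. FoxK1 KD basal was the lowest group, and none of its samples overlapped with another group. Over basal and insulin samples together, the ratio was lower in FoxK1 KD than in Control by 0.57 on the log2 scale or 0.674-fold (exact two-sided permutation test within treatment, p = 0.000408, adjusted p over the 8 ratio tests = 0.00109). In DKD it was 0.853-fold (exact permutation p = 0.00429, adjusted p = 0.00857), and in FoxK2 KD 0.978-fold (exact permutation p = 0.688, adjusted p = 0.688). Insulin raised the ratio 1.33-fold over the 4 genotypes (permutation test within genotype, 100000 resamples, p = 1e-05, the smallest they can give, adjusted p = 8e-05). The highest Control basal ratio, that of replicate 1, lay within the range of Control insulin samples.

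**Figure D3:**
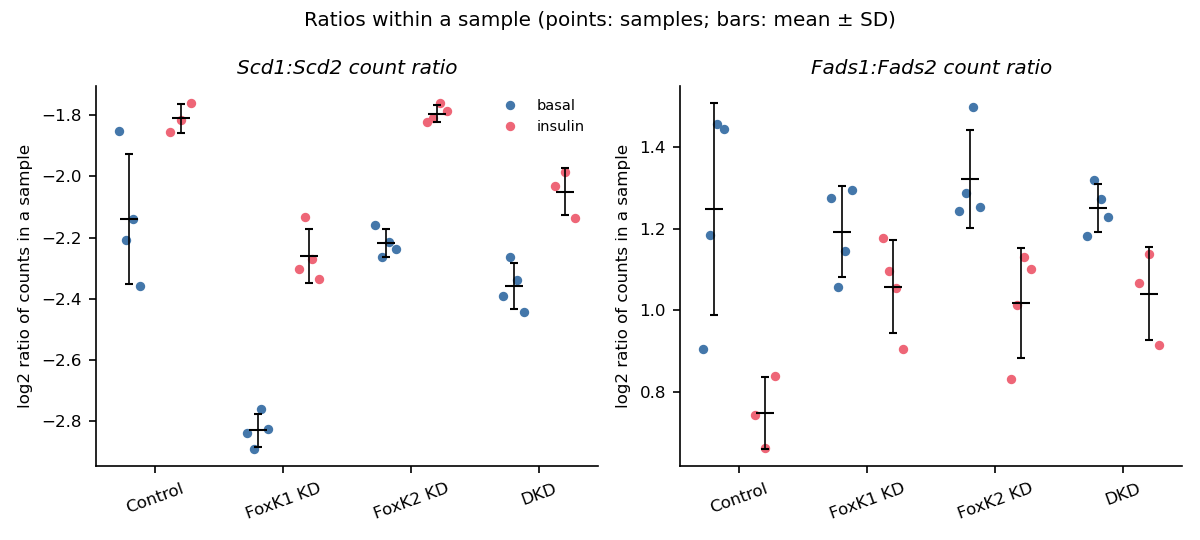
Log2 ratio of Scd1 to Scd2 counts (left) and of Fads1 to Fads2 counts (right) in each sample, by genotype and treatment, with bars for mean ± SD. FoxK1 KD basal samples have the lowest Scd1:Scd2 ratios (13.5 to 14.8 Scd1 counts per 100 Scd2 counts), and Control insulin samples have the lowest Fads1:Fads2 ratios (158 to 179 Fads1 counts per 100 Fads2 counts).

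Fads2, the Δ6 desaturase that starts the conversion of linoleic and α-linolenic acid, was the only polyunsaturated fatty acid desaturase of the 3 called in any comparison of 2 groups planned, and each time for insulin. In Control basal cells it was at 777, 554, 518 and 532 CPM, and after insulin at 834, 803 and 778 CPM. Replicate 1 of Control basal was apart from the other 3 and next to the insulin samples, yet Fads2 rose by 0.44 ± 0.09 on the log2 scale (adjusted p = 0.000649). Without that replicate the rise was 0.59. Fitting only Control basal and Control insulin gave 0.45 (adjusted p = 0.0667).

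The rise was seen in each knockdown. FoxK1 KD cells had 522, 599, 577 and 508 CPM at basal and 641, 648, 630.0 and 720.4 CPM after insulin (0.26 ± 0.09, adjusted p = 0.0231). This call was lost without FoxK1 KD basal replicate 1 (0.23, adjusted p = 0.0669) or 4 (0.22, adjusted p = 0.0779) or FoxK1 KD insulin replicate 4 (0.21, adjusted p = 0.0918), with no filter on low counts (0.23, adjusted p = 0.0632), and with the GC and length trend taken out (0.09, adjusted p = 0.409). FoxK2 KD cells had 586, 559.6, 536 and 565 CPM at basal and 734, 690.2, 679.5 and 684 CPM after insulin (0.31 ± 0.09, adjusted p = 0.00732). DKD cells had 540.1, 513, 559 and 545 CPM at basal and 662, 659 and 733 CPM after insulin (0.35 ± 0.10, adjusted p = 0.0101). Without DKD insulin replicate 3 the last value was 0.29 (adjusted p = 0.0604).

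No knockdown was called for Fads2. At basal its log2 fold changes against Control were -0.11 ± 0.09 in FoxK1 KD, -0.08 ± 0.09 in FoxK2 KD and -0.14 ± 0.09 in DKD, and without Control basal replicate 1 they were 0.05, 0.08 and 0.01. After insulin, all samples of the 3 knockdown groups lay below all 3 Control samples, with -0.29 ± 0.09 in FoxK1 KD (adjusted p = 0.0846), -0.21 ± 0.09 in FoxK2 KD (adjusted p = 0.781) and -0.23 ± 0.10 in DKD (adjusted p = 0.304). These 3 comparisons share the same Control samples, and the share of all genes with such an order of samples was not counted. With the GC and length trend taken out, Fads2 was called lower in FoxK1 KD (-0.36, adjusted p = 0.00766) and DKD (-0.32, adjusted p = 0.0465) after insulin, and in DKD at basal (-0.28, adjusted p = 0.0114). In that fit it was also called lower in DKD than in FoxK1 KD at basal (-0.27, adjusted p = 0.0195).

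Fads1, the Δ5 desaturase that makes arachidonic and eicosapentaenoic acid, ranged only from 1225 to 1515.5 CPM over all 30 samples. Its log2 fold changes in the 10 comparisons of 2 groups were between -0.15 and 0.13, with SE of 0.07 to 0.08, and none was called (lowest adjusted p = 0.142). With the GC and length trend taken out it was called lower in DKD at basal than in Control (-0.20, adjusted p = 0.0298) and than in FoxK2 KD (-0.23, adjusted p = 0.0246). Fads3 ranged from 266 to 392 CPM, with log2 fold changes between -0.20 and 0.22. It was highest in DKD basal cells, at 368, 387, 385 and 375 CPM, against 392, 295, 311 and 311 CPM in Control basal cells. Control basal replicate 1 was above all DKD samples and the other 3 below all of them. The difference was 0.21 ± 0.08 (adjusted p = 0.0624), and without Control basal replicate 1 it was 0.31 (adjusted p = 0.00333). It was also called by limma-voom (adjusted p = 0.0433), with at least 10 counts required in every sample (adjusted p = 0.0480) and with a replicate block (adjusted p = 0.0419). It was not called by DESeq2 (adjusted p = 0.0541), with no filter on low counts (0.19, adjusted p = 0.242), in a fit of only the groups compared (0.21, adjusted p = 0.172) or with the GC and length trend taken out (0.11, adjusted p = 0.307). Fads3 was called higher in DKD than in FoxK2 KD at basal (0.26 ± 0.08, adjusted p = 0.0269). That was lost without any of FoxK2 KD basal replicates 1, 2 or 4 or DKD basal replicates 1, 2 or 3 (0.24 to 0.27, adjusted p = 0.0541 to 0.0790), with no filter on low counts (0.24, adjusted p = 0.0887), and with the GC and length trend taken out (0.13, adjusted p = 0.262).

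Fads1 counts per 100 Fads2 counts were 187, 227, 274 and 272 in Control basal samples and 167, 158 and 179 in Control insulin samples, which did not overlap. Over the 4 genotypes insulin lowered this ratio to 0.820 of its basal value (permutation test within genotype, 100000 resamples, p = 3e-05, adjusted p over the 8 ratio tests = 0.00012). Against Control the ratio was 1.09-fold in FoxK1 KD (exact permutation p = 0.205), 1.13-fold in FoxK2 KD (exact permutation p = 0.0706) and 1.11-fold in DKD (exact permutation p = 0.139), with adjusted p from 0.113 to 0.234. The FoxK2 KD value passed 0.05, unadjusted, without Control basal replicate 3 (log2 difference 0.21, exact permutation p = 0.0351) or 4 (0.21, p = 0.0384) or FoxK2 KD insulin replicate 1 (0.20, p = 0.0486).

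Fads2 and Fads3 lie next to each other on chromosome 19, with 2654 bases between the annotated genes, and only the first was called for insulin. Their promoters, from 250 bases before to 50 after the RefSeq start (GRCm38.p6), are shown to set them side by side. Capitals mark matches on either strand to the motifs searched: a forkhead core TAAACA, an NF-Y box CCAAT, a GC box GGGCGG, an E-box CACGTG and a sterol regulatory element TCACNCCAC.
Fads2, chr19:10101454-10101753, minus strand: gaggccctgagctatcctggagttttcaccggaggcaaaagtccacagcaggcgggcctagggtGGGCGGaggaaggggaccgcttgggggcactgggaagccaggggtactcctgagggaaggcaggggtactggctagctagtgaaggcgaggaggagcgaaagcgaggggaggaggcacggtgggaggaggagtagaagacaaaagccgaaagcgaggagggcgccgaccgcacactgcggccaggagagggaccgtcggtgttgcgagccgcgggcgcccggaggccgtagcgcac
Fads3, chr19:10041298-10041597, plus strand: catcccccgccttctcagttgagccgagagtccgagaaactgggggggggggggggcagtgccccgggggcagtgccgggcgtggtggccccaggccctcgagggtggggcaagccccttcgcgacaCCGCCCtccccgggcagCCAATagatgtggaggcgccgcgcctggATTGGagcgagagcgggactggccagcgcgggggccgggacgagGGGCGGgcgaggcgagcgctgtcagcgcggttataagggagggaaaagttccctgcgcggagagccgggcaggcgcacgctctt
The Fads2 window held 1 GC box and no other match, and the Fads3 window held 2 GC boxes and 2 NF-Y boxes. No match overlapped another. Among 32851 promoter windows of the same length, 35.7% held a GC box, 37.4% an NF-Y box, 13.4% a forkhead core, 7.2% an E-box and 1.2% a sterol regulatory element. Both windows were rich in G and C (67% and 73%). In GENCODE, Fads2 starts at 10101746 on the minus strand, so nearly all of its window lies inside the annotated gene. Fads3 starts at 10041569, so most of its window lies before the gene. The windows thus cover unlike regions, and their matches cannot be compared as those of like promoters. A match is only a run of letters, and promoters of 2 of the 5 members were found in the table.

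All 5 genes are on chromosome 19 (GENCODE M21, GRCm38), in 2 clusters. Fads3 (10041569 to 10060110, plus strand), Fads2 (10062765 to 10101746, minus strand) and Fads1 (10182888 to 10196877, plus strand) form the first, and Scd2 (44293674 to 44306864, plus strand) and Scd1 (44394455 to 44407879, minus strand) the second, with 87590 bases between Scd2 and Scd1. Within 100 kb of Scd1 or Scd2, the other annotated protein-coding genes, Scd3, Scd4 and Wnt8b, had too few reads to test. Around the Fads genes 6 neighbours were tested and changes were scattered. For insulin, 1 was called in Control (25.4% of all tested genes) and 0 in DKD (16.3%). Against Control at basal, 1 was called in FoxK1 KD (8.09%) and 1 in DKD (21.1%). Fen1, a flap endonuclease of DNA replication, rose with insulin in Control cells (0.56 ± 0.20, adjusted p = 0.0327) and was lower in FoxK1 KD than Control at basal (-0.67 ± 0.20, adjusted p = 0.0382). Myrf, a membrane-bound transcription factor, was higher in DKD than Control at basal (0.25 ± 0.08, adjusted p = 0.0255). Fth1, the ferritin heavy chain, Rab3il1, Tmem258 and Dagla were not called in any of these comparisons. Mir5114, inside Scd2, had 0 reads in all samples and Mir6993, inside Fads1, had 5.

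Counted together, 2 of the 5 desaturases rose with insulin in Control (25.4% of all tested genes were called, 12.4% as higher), 2 in FoxK1 KD (31.6% called, 16.2% as higher), 3 in FoxK2 KD (28.1% and 14.4%) and 3 in DKD (16.3% and 8.31%), and none fell. Their median log2 fold changes were 0.18, 0.13, 0.31 and 0.35, against -0.011, 0.013, 0.007 and 0.005 over all tested genes. Against Control at basal, 1 was lower in FoxK1 KD (8.09% of genes called, 4.71% as lower) and 2 in DKD (21.1% and 10.8%). The medians were -0.15 and -0.14, against -0.012 and -0.001 over all genes. After insulin, 2 were lower in FoxK1 KD (3.59% called, 1.72% as lower) and 1 in DKD (1.21% and 0.343%), with medians of -0.26 and -0.12, against 0.003 and 0.006. For the difference in insulin effect in DKD, 2 were called and both were higher (1.54% called, 1% as higher). In FoxK2 KD against Control, edgeR called 0 of 5 at basal (0.378% of genes) and 0 after insulin (0.0264%), with 2 and 1 at an unadjusted p below 0.05. DESeq2 and limma-voom also called 0 in both. For the FoxK1 KD and FoxK2 KD differences in insulin effect, edgeR, DESeq2 and limma-voom called 0 of 5, with 0 and 1 at an unadjusted p below 0.05 in edgeR, and edgeR called 0% of all genes. At an adjusted p below 0.25, 4 desaturases were called for insulin in FoxK1 KD (54% of genes called), 5 for insulin in DKD (37.3%), 3 for FoxK1 KD at basal (26.6%), 1 for FoxK2 KD at basal (3.59%), 4 for DKD at basal (43.6%), 4 for FoxK1 KD after insulin (15.1%) and 1 for DKD against FoxK2 KD after insulin (0.422%). The study's methods add a 1.5-fold minimum for insulin, under which 0 were called in Control (12% of genes), 1 in FoxK1 KD (12.9%), 1 in FoxK2 KD (10.7%) and 2 in DKD (8.49%).

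Genes whose 8 group means moved most like each desaturase were found by the root-mean-square difference of centred log2-CPM among 9407 genes. For Scd1 they were Ugt2b34 (0.13), a glucuronosyltransferase, Acat2 (0.15), which makes acetoacetyl-CoA for sterol synthesis, and Twist2 (0.18), against a median of 0.51 over all genes. For Scd2 they were Btbd10 (0.05), Mpzl2 (0.06) and Acsl3 (0.06), a long-chain acyl-CoA synthetase, against a median of 0.28. Those nearest to Fads2 were Paxip1, Dnaaf2 and Dnmt1 (0.04 each, median 0.24), and those nearest to Fads3 were Acsf2 (0.03), Dnmt3a and Ubqln4 (0.04 each, median 0.19). Fads1 itself moved by a root mean square of only 0.06, and Ppil4, Isg20l2 and Abcf3 were as flat (0.03 to 0.04, median 0.17). Among the desaturases, Scd2 and Fads2 were the most alike (0.14) and Scd1 and Fads3 the least (0.58).

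Other genes of fatty acid synthesis and desaturation were read from lists. Over all tested genes, 25.4% were called for insulin in Control and 16.3% for insulin in DKD. Against Control, 8.09% were called in FoxK1 KD at basal, 21.1% in DKD at basal and 1.21% in DKD after insulin. Whether any list departed from these shares was not tested, nor whether calls of list genes changed with the GC and length trend taken out. Palmitate synthesis, which supplies the substrate of SCD, had 4 of 6 genes tested. Of these, 3 rose with insulin in Control and 3 in DKD, and none was called in DKD against Control at basal. Acaca, acetyl-CoA carboxylase, rose by 0.72 ± 0.11 in Control (adjusted p = 9.52e-06) and 0.78 ± 0.12 in DKD (adjusted p = 9.43e-06). Fasn, fatty acid synthase, rose by 0.64 ± 0.10 and 0.60 ± 0.10, and Acly, ATP citrate lyase, by 0.55 ± 0.08 and 0.64 ± 0.08. In FoxK1 KD at basal 1 of the 4 was lower, Acly (-0.28 ± 0.08, adjusted p = 0.0218). The list median was 0.59 for insulin in Control, -0.10 for FoxK1 KD against Control at basal and -0.16 for DKD against Control at basal, where Scd1 was at -0.81 and Scd2 at -0.59.

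Of 9 elongation genes tested among 13, 2 rose with insulin in Control and 3 in DKD, and 2 fell in DKD at basal. Elovl6, which extends palmitate to stearate, rose with insulin by 0.63 ± 0.10 in Control (adjusted p = 5.34e-06) and 0.70 ± 0.10 in DKD (adjusted p = 2.94e-06), and was lower in DKD than Control at basal (-0.35 ± 0.09, adjusted p = 0.00553). Elovl5, the elongase that acts between Fads2 and Fads1, was at 0.03 ± 0.10 for insulin in Control (adjusted p = 0.867). It was lower at basal in DKD (-0.55 ± 0.10, adjusted p = 8.84e-05) and in FoxK1 KD (-0.48 ± 0.09, adjusted p = 0.00148), and rose with insulin in DKD (0.43 ± 0.10, adjusted p = 0.00328). Hsd17b12, the ketoreductase of elongation, rose with insulin in Control (0.53 ± 0.09, adjusted p = 2.27e-05) and DKD (0.33 ± 0.09, adjusted p = 0.00958).

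The electron donors of desaturation, cytochrome b5 and its reductases, had 5 of 6 genes tested. With insulin in Control, Cyb5r3 (0.46 ± 0.09, adjusted p = 0.000293) and Cyb5b (0.29 ± 0.11, adjusted p = 0.0403) rose and Cyb5a fell by 0.38 ± 0.13 (adjusted p = 0.0292). None was called in DKD against Control at basal or after insulin, where the list medians were 0.05 and 0.05. Among 3 of 5 other desaturases tested, Degs1, which puts the double bond into ceramide, was lower with insulin in Control (-0.42 ± 0.10, adjusted p = 0.00167) and in DKD at basal (-0.30 ± 0.09, adjusted p = 0.0167). Degs2 was higher in DKD at basal (1.14 ± 0.34, adjusted p = 0.0141), and Fads6 rose with insulin in Control (0.36 ± 0.13, adjusted p = 0.0391).

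Among 10 of 12 acyl-CoA synthetase and acyl chain remodelling genes tested, 4 rose and 1 fell with insulin in Control, and 1 rose and 3 fell in DKD at basal. Acsl3 rose with insulin in Control (0.26 ± 0.08, adjusted p = 0.0175), FoxK2 KD (0.30 ± 0.08, adjusted p = 0.00307) and DKD (0.505 ± 0.083, adjusted p = 4.3e-05), and was not called in FoxK1 KD. It was lower than Control in DKD at basal (-0.39 ± 0.08, adjusted p = 0.000465) and in FoxK1 KD after insulin (-0.34 ± 0.08, adjusted p = 0.0147). Acsl1 (0.61 ± 0.12), Mboat1 (0.69 ± 0.15) and Acsl5 (0.33 ± 0.08) rose with insulin in Control, while Soat1, which makes cholesterol esters, was lower (-0.36 ± 0.09) and was lower also in DKD at basal (-0.43 ± 0.08). Besides Scd1 and Scd2, Soat1 was the only gene of the lists called for the DKD minus Control insulin effect (0.555 ± 0.127, adjusted p = 0.0192, with 1.54% of all tested genes called). Dgat2, which makes triglycerides, was higher in DKD than Control both at basal (0.56 ± 0.12, adjusted p = 0.00102) and after insulin (0.53 ± 0.14, adjusted p = 0.0413). Of the 18 SREBP, LXR and PPAR regulators, all tested, Insig1, which holds SREBP in the endoplasmic reticulum, was the only one to rise with insulin in Control (0.30 ± 0.11, adjusted p = 0.0478) and none fell. With insulin, 4 rose and 2 fell in FoxK1 KD (31.6% of all tested genes called), 5 rose in FoxK2 KD (28.1%) and 2 in DKD (16.3%). In FoxK1 KD at basal 3 were lower, named here after their values had been seen: Srebf1 (-0.33 ± 0.09, adjusted p = 0.0231) and Srebf2 (-0.31 ± 0.07, adjusted p = 0.00777), which encode the SREBP factors, and their escort Scap (-0.52 ± 0.16, adjusted p = 0.0425). Srebf1 rose with insulin in FoxK1 KD (0.29 ± 0.09, adjusted p = 0.0186) and FoxK2 KD (0.41 ± 0.09, adjusted p = 0.00112). Srebf2 also rose in FoxK1 KD (0.313 ± 0.075, adjusted p = 0.00154) and FoxK2 KD (0.309 ± 0.074, adjusted p = 0.00185). The others called with insulin in FoxK1 KD were Insig1 (0.353 ± 0.106), Mlxipl (0.92 ± 0.269), Ppargc1a (-0.378 ± 0.093) and Sp1 (-0.311 ± 0.119). In FoxK2 KD they were Insig1 (0.369 ± 0.104), Mlxipl (0.698 ± 0.222) and Ppard (0.525 ± 0.13). None of Srebf1, Srebf2 and Scap was called in DKD against Control at basal. In DKD against FoxK1 KD at basal, 3 of the list were higher and 1 lower (26.3% of all tested genes called). Higher were Ppard (0.537 ± 0.132, adjusted p = 0.00317), Srebf2 (0.286 ± 0.075, adjusted p = 0.00491) and Srebf1 (0.253 ± 0.094, adjusted p = 0.0431). Ppargc1a was lower (-0.445 ± 0.092, adjusted p = 0.000702). Ppard (0.47 ± 0.13, adjusted p = 0.00908) and Nfyb (0.26 ± 0.08, adjusted p = 0.0142) were higher in DKD than Control at basal. The list medians were 0.04 for insulin in Control, -0.09 for FoxK1 KD at basal and -0.07 for DKD at basal.

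**Figure D4:**
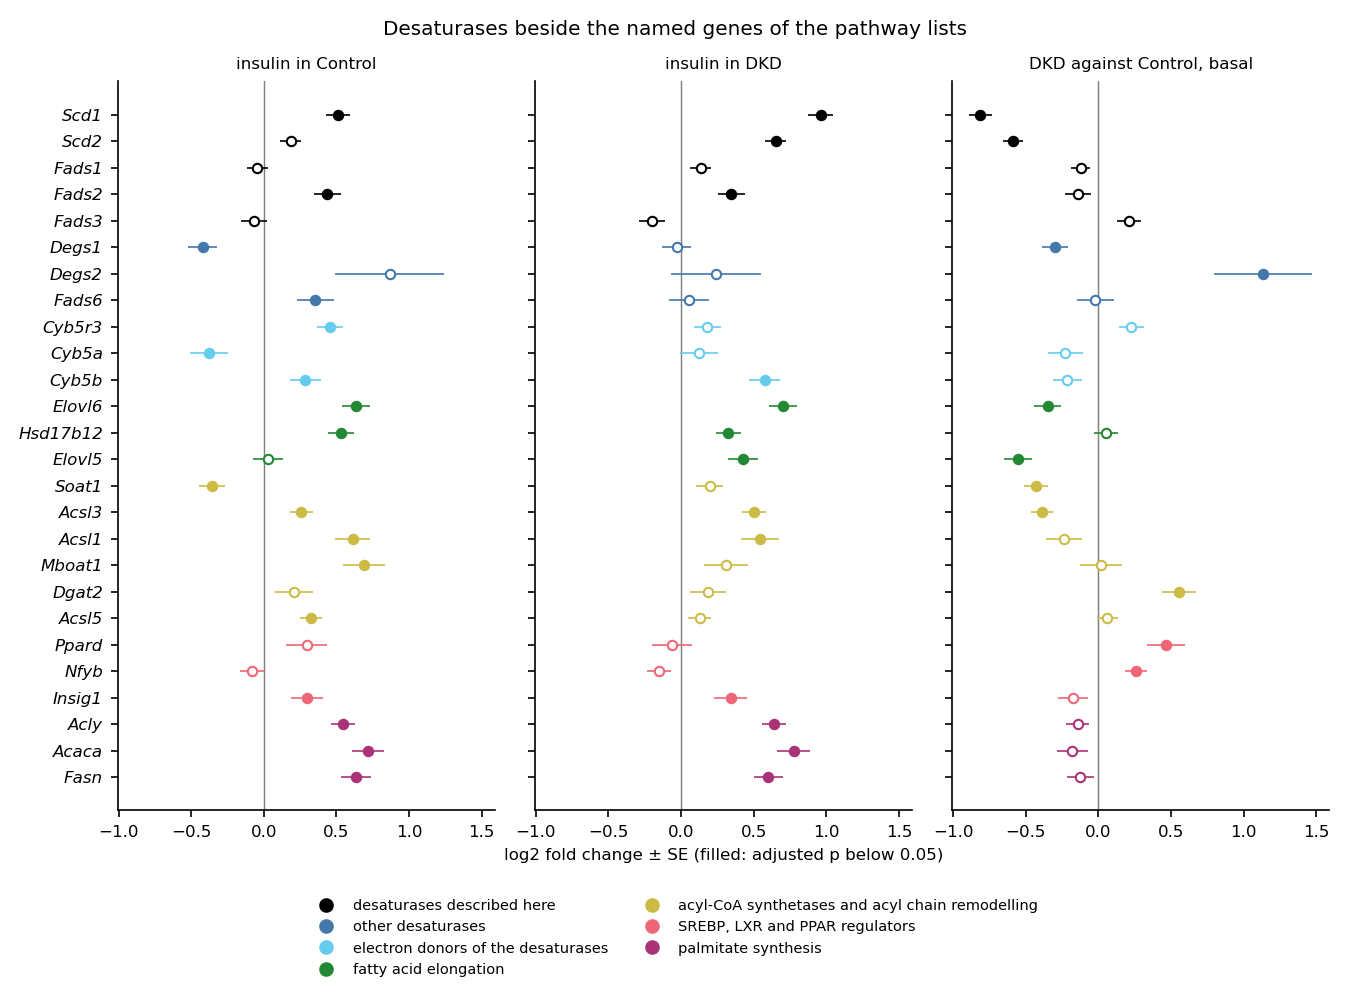
Log2 fold change ± SE (horizontal axis) of the 5 desaturases and of 21 genes from the other lists (rows, coloured by list) for insulin in Control, insulin in DKD and DKD against Control at basal, with filled points for an adjusted p below 0.05. The palmitate synthesis genes rise with insulin in both genotypes and are not called in DKD at basal, where Scd1 (-0.81) and Scd2 (-0.59) have the lowest values shown.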

How the data were processed

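RNA-seq libraries of polyadenylated RNA from 30 AML12 samples were used. The deposited values are counts of reads per gene, made by the authors and not normalized. The submitters' processing notes name CASAVA 1.8, STAR 2.4.2a, featureCounts and GRCm38.p4. The strand setting and annotation release are not given in the sources used here. Of 49089 gene IDs, 48349 matched GENCODE M21, which gave names, positions and exon lengths. Samples were grouped by genotype and treatment from the labels.

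Genes were filtered by filterByExpr (11368 kept), scaled by TMM and fitted in 1 model of the 8 groups with edgeR 4.0.16 in R 4.3.3 (quasi-likelihood test, Benjamini-Hochberg adjustment over all genes kept). SE was the size of a log2 fold change over the root of its F statistic. Of 17 comparisons, 13 were planned and 4, DKD against each single knockdown, were added after the data had been seen. Alternatives were DESeq2 1.42.0, limma-voom (limma 3.58.1), other filters, only the groups compared, a replicate block, removal of the GC and length trend, an adjusted p below 0.25 with and without a 1.5-fold minimum, as the study used, and leaving out each library. The scripts were tested on simulated data with 200 changed genes. Count ratios (pseudocount 0.5, alternative 5) were compared by two-sided permutation tests within strata (scipy 1.17.1), with Benjamini-Hochberg adjustment over 8 tests.

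The 5 genes and the pathway lists were chosen with earlier results of these data known. Named besides the 5 genes were Foxk1 and Foxk2, list genes called for insulin in Control or for DKD against Control (at most 6 a list, by smallest p), protein-coding genes within 100 kb, and the 3 genes nearest in pattern (mean log2-CPM of at least 3). Total counts were 2141460 to 5668270 per sample, and the desaturases had at least 808 counts in every sample.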

Additional observations from a re-analysis of the deposited data

Results flagged for a closer look

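In Control basal cells, replicate 1 stood apart from the other 3 samples as the highest for Fads2 (777 CPM) and for Fads3 (392 CPM), with a gap above Dixon's critical value for 4 samples. Replicate 4 of FoxK1 KD after insulin was likewise the highest for Fads3 (381 CPM). In all, 42 groups of 4 were examined, Foxk1 and Foxk2 included, and chance flags about 1 in 20.

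The insulin effect differed between DKD and Control cells for Scd1 (0.45 on the log2 scale) and for Scd2 (0.47) by the test of the difference itself, and the libraries without which these calls are lost are named above.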

How the results depend on the processing

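Called values did not change sign in any of 347 alternative fits, and 44 of 988 fits of values not called did. The counts of desaturases called that moved by over 1.5 times were as follows, and the cause was not tested. In a fit of only the groups compared, 1 was called for insulin in Control, 1 for FoxK1 KD after insulin, 0 for DKD after insulin and 0 for the DKD difference in insulin effect. With no filter on low counts, 1 was called for insulin in FoxK1 KD and 1 for FoxK1 KD after insulin. With the GC and length trend taken out, 1 was called for insulin in FoxK1 KD, 2 for FoxK1 KD at basal, 4 for DKD at basal, 2 for DKD after insulin, 1 for the DKD difference in insulin effect and 2 for DKD against FoxK1 KD at basal. DESeq2 and limma-voom each called 2 for FoxK1 KD at basal and 1 for DKD against FoxK2 KD after insulin. At an adjusted p below 0.25, 4 were called for insulin in FoxK1 KD, 5 for insulin in DKD, 3 for FoxK1 KD, 1 for FoxK2 KD and 4 for DKD at basal, 4 for FoxK1 KD after insulin and 1 for DKD against FoxK2 KD after insulin. With a 1.5-fold minimum as well, 0 were called for insulin in Control, 1 for insulin in FoxK1 KD, 1 for insulin in FoxK2 KD, 1 for FoxK1 KD after insulin, and 0 for DKD after insulin, for the DKD difference in insulin effect, and for DKD against FoxK1 KD or FoxK2 KD at basal and against FoxK1 KD after insulin. Leaving out each library gave 2 to 3 for insulin in Control, 1 to 2 in FoxK1 KD and 2 to 3 in DKD, 1 to 2 for FoxK1 KD and 2 to 3 for DKD at basal, 1 to 2 for FoxK1 KD and 0 to 1 for DKD after insulin, 0 to 2 for the DKD difference in insulin effect, and 0 to 0 for DKD against FoxK1 KD after insulin.

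The replicate numbers of the labels did not pair the samples: deviations of same-numbered samples correlated at a mean of -0.0134 (99 pairs) and others at 0.0043 (294 pairs), and 5 of 30 samples correlated best with their own number. With the replicate block, 1 desaturase was called for FoxK1 KD after insulin, 1 for the DKD difference in insulin effect and 0 for DKD against FoxK1 KD after insulin, and Scd1 in FoxK2 KD after insulin was at 0.02.

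Some values near 0 changed sign. Fads2 at basal without Control basal replicate 1 was at 0.049 in FoxK1 KD, 0.075 in FoxK2 KD and 0.007 in DKD, within ranges over libraries left out of -0.17 to 0.049, -0.144 to 0.075 and -0.203 to 0.007. Scd1 in FoxK2 KD after insulin was at 0.001 in a fit of only the groups compared and between -0.022 and 0.008 without each library, and Scd2 there was between -0.05 and 0.015. The log2 difference of the Scd1:Scd2 ratio in FoxK2 KD ranged from -0.069 to 0.016, and that of the Fads1:Fads2 ratio from 0.115 to 0.207. Depth limits Fads3 most, which had 808 to 1739 reads in a sample, and the share of counting error in the spread between samples was not tested.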
